A study of Mus musculus with 44 samples.

Results

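The comparison set a mouse cortical culture transduced with a lentivirus that expresses GFP against an untransduced, unstimulated culture of the same age. It describes how these cultures differed in mRNA levels, in ribosome occupancy, in translational efficiency (TE) and in poly(A)-tail length. It rests on 6 of the 44 samples of the series, those labelled as GFP transduced and those labelled as the control of the stimulation experiment, with 1 RNA-seq, 1 ribosome-footprint (RPF) and 1 TAIL-seq library for each culture. Both cultures came from cortices of newborn C57BL/6J mice, with several pups pooled, received the mitotic inhibitor AraC, and were harvested after 14 days in vitro (DIV14). The GFP lentivirus was added on day 5 and drives EGFP from a synapsin promoter, so the cargo, but not the entry of the particle, is limited to neurons. The particles carry a VSV-G envelope and were packaged in HEK293FT cells, a human kidney line. 4 more DIV14 cultures of the series served as the measure of how far unlike cultures differ: 2 without virus that received BDNF or glutamate with glycine (glu/gly), and 2 with a lentivirus that carries miR-1 or miR-155. The 6 cultures were prepared in 2 batches of 3, each from 2 litters, and which culture belongs to which batch is not given in the sources used here. The lentivirus set and the preparation batch therefore cannot be told apart.

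A lentiviral vector delivers its RNA genome into the cell, where it is copied into DNA and integrated. Cells can sense such nucleic acids through Toll-like receptors, RIG-I-like receptors or the cGAS pathway, and the type I interferon that follows acts through its receptor and a transcription factor complex that holds STAT2 and IRF9 on the interferon-stimulated genes. That complex binds the interferon-stimulated response element, a repeat of GAAA separated by a pair of bases, in the promoters of its targets. In brain cultures astrocytes, microglia and neurons all express genes of this kind, and glial cells and vascular cells persist in small numbers beside the neurons.

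Promoter stretches of 4 interferon-stimulated genes are shown because these genes were among the listed genes with the largest RPF differences and hold the element; capitals mark matches to GAAANNGAAA or, for the other strand, TTTCNNTTTC, and overlapping matches are run together. The sequences are RefSeq, GRCm38.p6, each read 5′ to 3′ on the strand of its gene from within 250 bases upstream of the start.
Isg15, chr4:156200850-156200909, minus strand: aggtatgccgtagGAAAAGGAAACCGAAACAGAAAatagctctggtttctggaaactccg
Ifit1, chr19:34640779-34640838, plus strand: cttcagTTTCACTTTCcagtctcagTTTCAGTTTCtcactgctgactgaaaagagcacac
Trim30a, chr7:104465195-104465254, minus strand: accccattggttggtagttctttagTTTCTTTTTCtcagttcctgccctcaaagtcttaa
Gbp3, chr3:142559980-142560039, plus strand: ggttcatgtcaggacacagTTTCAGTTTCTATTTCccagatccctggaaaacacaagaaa

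The RNA-seq libraries held 508771 reads on genes in the untransduced and 448022 in the GFP culture, the RPF libraries 4337282 and 2949577, and the TAIL-seq libraries 1042761 and 389654 tags. RNA-seq was the shallowest assay for the untransduced and TAIL-seq for the GFP culture. Levels written CPM are counts scaled to 1000000 reads on genes of the same library, whereas numbers of reads, RPFs or tags are unscaled. With 1 library a culture there is no replicate and no test between the 2 cultures. A gene was called different where the 2 libraries differed by 2-fold or more and the 95% interval of their ratio (exact Clopper-Pearson) did not include 1, among genes with at least 30 reads summed over both, and these intervals cover counting error only. The untransduced library was the deeper one in each assay, so the filter was passed more easily by genes that were high there. Of all genes tested, 2.12% were called lower and 1.03% higher in RNA-seq, 3.46% and 0.748% in RPFs, and 2.84% and 1.88% in tags. A test across cultures set the 3 lentivirus cultures against the 3 without virus (edgeR quasi-likelihood, Benjamini-Hochberg adjusted p). Its cultures are unlike one another, so the p-values measure differences beyond the spread between unlike cultures. The GFP and untransduced libraries are part of this test, so for genes chosen by their difference its p-values are not independent of the choice. A gene could pass its filter through 1 set alone, which favours a call in that direction. In RPFs all 3 lentivirus cultures lay below all 3 others for 8.15% of the genes tested.

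Interferon-stimulated genes were lower in the GFP than in the untransduced culture, and none was called higher. In RPFs 0 of the 30 measured genes were called higher and 19 were called lower, among 0.748% called higher and 3.46% called lower of all 10828 genes tested. The median difference of the 30 was −1.36 on the log2 scale beside −0.04 for all genes, and all 30 lay below 0. At a minimum of 100 summed reads, 7 genes remained for the comparison and 1 was called lower. Of the 49 genes of the list, 45 were in the files and 15 of these did not reach 30 RPFs, so the count does not cover the whole list. Several of the 30 passed the filter mainly through their untransduced reads, which favours lower calls, whereas the sums that follow use every listed gene. Summed over all 45, the RPFs were 665 CPM in the untransduced and 313 in the GFP culture, 2.13-fold lower (95% interval 1.97 to 2.29). The same sum in RNA-seq was 1.94-fold lower (1.60 to 2.37) and in TAIL-seq tags 1.87-fold lower (1.53 to 2.30).

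Isg15, a ubiquitin-like modifier that is conjugated to proteins after interferon, had 68 RPFs in the untransduced culture, 18 each in the BDNF and glu/gly cultures, 3 in the GFP culture and 2 and 4 in the miRNA cultures. It was 15.4-fold lower in the GFP than in the untransduced culture (5.06 to 76.6). The 3 lentivirus cultures were below the 3 without virus (adjusted p = 0.0177, edgeR), and the untransduced culture was the highest of all. Ifit1, which binds viral RNA that lacks cap methylation, had 54, 18 and 15 RPFs without virus and 3, 1 and 4 with it, and was 12.2-fold lower (3.97 to 61.2). Rtp4, whose product chaperones receptors and restricts RNA viruses, had 36, 10 and 8 RPFs without virus and 2, 2 and 3 with it. These counts are unscaled, from RPF libraries with 4337282, 3697441 and 2812215 reads on genes without virus and 2949577, 817114 and 6428048 with it. A count in the first miRNA library, the shallowest, therefore stands for a higher CPM than the same count elsewhere. Here and in the lists below, members that were not called in 2 or more assays and are named for their values were chosen after these were seen.

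The sensors and ubiquitin-system genes of the list were lower too. Ifih1, which encodes the double-stranded RNA sensor MDA5, had 62 RPFs in the untransduced and 10 in the GFP culture, 4.22-fold lower (2.15 to 9.22; adjusted p = 0.0497 over the 6 cultures, edgeR). Usp18, the protease that removes ISG15 and dampens interferon signalling, had 31 against 4 RPFs, 5.27-fold lower (1.86 to 20.6; adjusted p = 0.0266, edgeR). Trim25, a ubiquitin ligase of the RIG-I pathway, had 69 against 11, 4.27-fold lower, and did not pass the test over the 6 cultures (adjusted p = 0.151, edgeR). Oasl2 and Parp14, an oligoadenylate synthetase-like protein and a poly(ADP-ribose) polymerase, were 4.83-fold (2.48 to 10.5) and 5.63-fold (2.57 to 14.6) lower, with adjusted p-values of 0.037 and 0.0368 (edgeR). Gbp3, Trim30a and Gbp2, which act against pathogens or in innate signalling, were 3.91-fold, 3.94-fold and 2.82-fold lower in RPFs. Lgals3bp, a secreted galectin-binding protein, had 99.6, 75.5 and 91.7 RPF CPM without virus against 48.5, 39.2 and 53.4 with it (2.05-fold lower in the GFP culture, adjusted p = 0.019, edgeR).

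The transcription factors of the pathway did not share 1 size of difference. Stat2 was 1.73-fold lower in RPFs (1.29 to 2.35) and did not reach 2-fold. Irf9, its DNA-binding partner, had 80 RPFs against 18 and was 3.02-fold lower (1.80 to 5.36), but the BDNF and glu/gly cultures, with 7.84 and 6.76 CPM, were closer to the GFP culture at 6.10 than to the untransduced at 18.4. Pml, which forms nuclear bodies, was at 13.4 and 12.9 CPM, a ratio whose interval included 1.

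**Figure D1:**
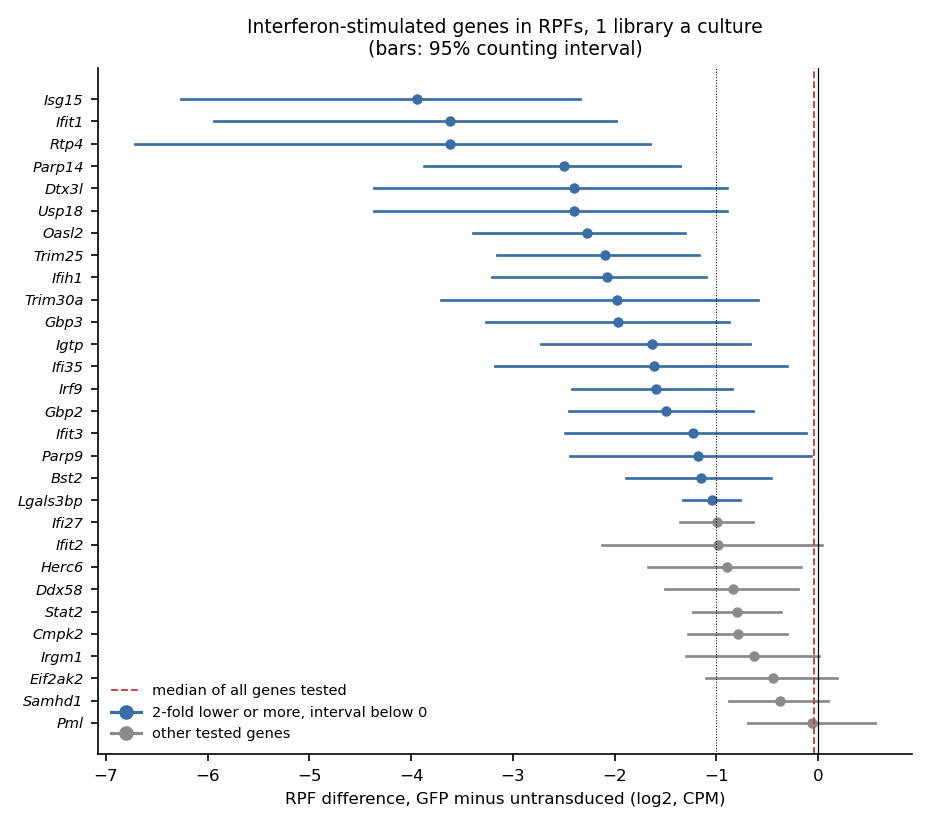
RPF difference of 29 of the 30 measured interferon-stimulated genes, GFP minus untransduced culture on the log2 scale (x axis), with 1 library a culture and bars for the 95% counting interval. The 29 points lie below 0, and the 19 in blue are 2-fold or more lower with an interval below 0; the dashed line is the median of all genes tested.

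The summed RPFs of the 45 genes were 665, 422 and 473 CPM in the untransduced, BDNF and glu/gly cultures and 313, 256 and 287 in the GFP and the 2 miRNA cultures, so the sets did not overlap and the untransduced culture was the highest. With the BDNF or the glu/gly culture in place of the untransduced one, 4 and 3 listed genes were called lower in the GFP culture. By the test across cultures 8 of 26 tested genes were lower in the lentivirus set in RPFs (edgeR), beside 0.981% of all 11209 genes tested, and 0.0357% were higher. That count was 0 without the untransduced library, 0 without the second miRNA library and 1 without the glu/gly library. Low-count members such as Isg15 could pass the filter of this test through the cultures without virus alone, which favours lower calls. The GFP and untransduced libraries are also part of the test. The p-values given above for single genes of the list share these limits.

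RNA-seq and TAIL-seq were too shallow for most of these genes. In RNA-seq 2 listed genes passed the filter, and Ifi27, a small mitochondrial membrane protein, was called lower with 39 against 15 reads (2.29-fold; 2.12% of all genes called lower). In tags 7 passed and Ifit3b was called lower with 28 against 2 tags (2.84% called lower); Ifit3b and Ifit3 are near-identical, so how their reads were split is uncertain. The unmeasured remainder held few reads: Irf7, the amplifier of type I interferon, had 6 RPFs against 0 and Rsad2, an antiviral enzyme, 20 against 3.

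Among promoters with an entry in the RefSeq table, 8 of 15 interferon-stimulated genes called lower held the element, 53.333%, beside 2.194% of the 8615 promoters of all genes tested in RPFs and 3.038% of all 27025 promoters. Of all genes called lower in RPFs, 19 of 302 held it (6.291%), and outside the interferon and MHC lists 11 of 283 (3.887%). Among all measured interferon-stimulated genes 10 of 24 held it (41.667%), and among those not called 2 of 9 (22.222%). These shares describe the letters in a window and not binding.

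MHC class I genes, which present peptides at the cell surface and are also induced by interferon, were lower as well. In RPFs 4 of 9 measured genes were called lower and none higher, beside 3.46% called lower of all genes. The median difference was −0.85, and the list sum was 409 CPM against 226, 1.80-fold lower (1.65 to 1.98). H2-K1 (chr17:33996012-34000619, mm10), a class I heavy chain, was at 47.0, 34.4 and 37.7 RPF CPM without virus and at 15.6, 22.0 and 15.6 with it, and the sets did not overlap (adjusted p = 0.00667, edgeR). H2-K1 was called lower in all 3 assays, but its reads can be shared with other class I genes, and the RPF call across cultures was lost without the second miRNA library. Tapbp, which loads peptides onto the heavy chain, was 2.37-fold lower (1.86 to 3.05; adjusted p = 0.0134, edgeR). Psmb9 and Psmb8, the inducible subunits of the immunoproteasome, were 3.94-fold (1.51 to 13.1) and 2.89-fold (1.31 to 7.23) lower, whereas Psmb10, the third inducible subunit, was at 27.7 and 25.1 CPM. B2m, the invariant light chain, was called lower in RNA-seq (2.64-fold) and was 1.81-fold lower in RPFs. With BDNF or glu/gly as the reference, 1 listed gene was called lower in each case. In RPFs over the 6 cultures 3 of 8 MHC genes passed, beside 0.981% of all genes called lower. Their count was 1 without the untransduced library, 2 without the glu/gly library and 0 without the second miRNA library.

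Genes that sense nucleic acids or carry the interferon signal showed little difference in RPFs. Of 10 measured genes for nucleic acid sensing and interferon signalling, 0 were called higher and 1 lower in RPFs, with a median of −0.19. The one was Tlr3, the endosomal receptor for double-stranded RNA, with 63 against 18 RPFs (2.38-fold lower, 1.39 to 4.27). The receptor subunits Ifnar1 and Ifnar2 were at 35.3 and 38.3 and at 14.3 and 14.9 CPM, and the kinase Tbk1 was at 45.4 and 51.2. Among NF-kB targets and cytokines 0 of 6 were called in RPFs, but 5 of the 6 lay below 0 with a median of −0.38. Their list sum was 226 RPF CPM in the untransduced and 170 in the GFP culture, 1.33-fold lower (1.20 to 1.49). The BDNF and glu/gly cultures were at 170 and 182 CPM. In RNA-seq and in tags the sum was 1.11-fold lower, with intervals that included 1. Cxcl10, an interferon-induced chemokine, had 28 tags against 2 and was called lower in tags, whereas its RPFs, 9 against 6, were under the filter. The type I interferon genes themselves were not analysed here.

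Stress programmes showed no genes called higher in RPFs. In RPFs 0 of 16 p53 targets, 0 of 23 genes of the integrated stress and unfolded protein response and 0 of 11 heat shock proteins were called in either direction, with medians of −0.02, −0.17 and −0.18. Cdkn1a, the p53 target that arrests the cell cycle, was at 96.6 and 93.6 RPF CPM. In tags 1 of 12 p53 targets and 2 of 10 heat shock proteins were called lower, beside 2.84% of all genes. Of 15 genes of oxidative stress and metallothioneins, 1 was called lower in RPFs: Mt2, a metal-binding protein, at 453 CPM in the untransduced, 234 in both the BDNF and the glu/gly and 206 in the GFP culture. The untransduced library again stood above the rest.

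Across the transcriptome, 10 genes were called lower in all 3 assays and 0 were called higher in all 3, among 5241 genes tested in all 3. In at least 2 assays 57 genes were called lower and 8 higher. In single assays 67 genes were called higher and 138 lower in RNA-seq, 81 and 375 in RPFs, and 130 and 197 in tags. The split in tags turned to 267 higher and 232 lower with no filter and to 179 and 167 with the BDNF culture as the reference, and was 364 and 372 at 1.5-fold. In RPFs it was 111 and 157 with the BDNF and 92 and 146 with the glu/gly culture as the reference. When the authors' RPM, whose total holds more than the reads on genes, was used for RNA-seq, the split was 27 to 353, and the median of all genes lay at −0.23. The share called higher was 1.03% in RNA-seq and 1.88% in tags.

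The 10 genes included secreted proteins, membrane proteins and metabolic regulators. They were chosen by the GFP and untransduced libraries, which are also part of the test over the 6 cultures. Its p-values for these genes are therefore not independent of that choice. Txnip (chr3:96557957-96561857, mm10), a glucose-responsive inhibitor of thioredoxin and of glucose uptake, had 68.9, 101 and 55.1 RPF CPM without virus and 12.2, 22.0 and 18.7 with it. The sets did not overlap in RPFs or in RNA-seq or in tags. In the GFP culture Txnip was 5.65-fold lower in RPFs (3.99 to 8.22), 4.18-fold in RNA-seq (1.92 to 10.4) and 5.23-fold in tags (1.32 to 45.3). Its RPF difference between the sets was −2.16 ± 0.25 (SE, log2; adjusted p = 0.000855, edgeR), and it stayed past the threshold with each library left out.

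C3 (chr17:57203967-57228136, mm10), the central component of complement and a product of reactive astrocytes, had 1173, 993 and 1015 RPF CPM without virus, 327 in the GFP culture and 41.6 and 91.9 in the miRNA cultures. The GFP culture was the highest of the lentivirus set. C3 was 3.59-fold lower in RPFs (3.35 to 3.85), 5.56-fold in RNA-seq (4.17 to 7.53) and 3.99-fold in tags (2.39 to 7.15), and the lentivirus set was lower by the test over 6 cultures in RPFs (adjusted p = 0.0102), RNA-seq (0.00364) and tags (0.000574, all edgeR). The RPF call was lost in DESeq2, without the glu/gly library and without the second miRNA library. Cebpd, a transcription factor of the acute-phase response, was at 54.6, 28.4 and 35.9 RPF CPM without virus and at 10.2, 13.5 and 8.87 with it, 5.37-fold lower in the GFP culture (3.67 to 8.14; adjusted p = 0.00263 in RPFs and 8.48e-05 in tags, edgeR). Cp, the ferroxidase ceruloplasmin that astrocytes secrete or anchor to their membrane, was at 419, 366 and 360 without virus and at 166, 50.2 and 85.6 with it (adjusted p = 0.00382, edgeR).

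Efemp1, an extracellular matrix glycoprotein, was 3.66-fold lower in RPFs (2.79 to 4.87; adjusted p = 0.0125, edgeR), a call that was lost in DESeq2 and without the glu/gly or the second miRNA library. Ezr, which links membrane to actin in fine astrocyte processes, was 2.41-fold lower (2.11 to 2.76), and Cd9, a tetraspanin, was 2.13-fold lower (1.72 to 2.66). Slc39a12, a zinc transporter, was 2.01-fold lower in RPFs (1.60 to 2.53), but in RNA-seq its 44.6 CPM in the GFP culture was between the 39.9 of the glu/gly and the 54.2 of the BDNF culture. The calls of Ezr, Cd9 and Slc39a12 over the 6 cultures were lost in RPFs without the untransduced, the glu/gly or the second miRNA library. Scd1, the desaturase that makes monounsaturated fatty acids, was 3.15-fold lower in RPFs (2.64 to 3.78) at 161, 142 and 149 CPM without virus and 51.2 in the GFP culture, but 1 miRNA culture was at 133 and the set did not pass (adjusted p = 0.0723, edgeR).

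**Figure D2:**
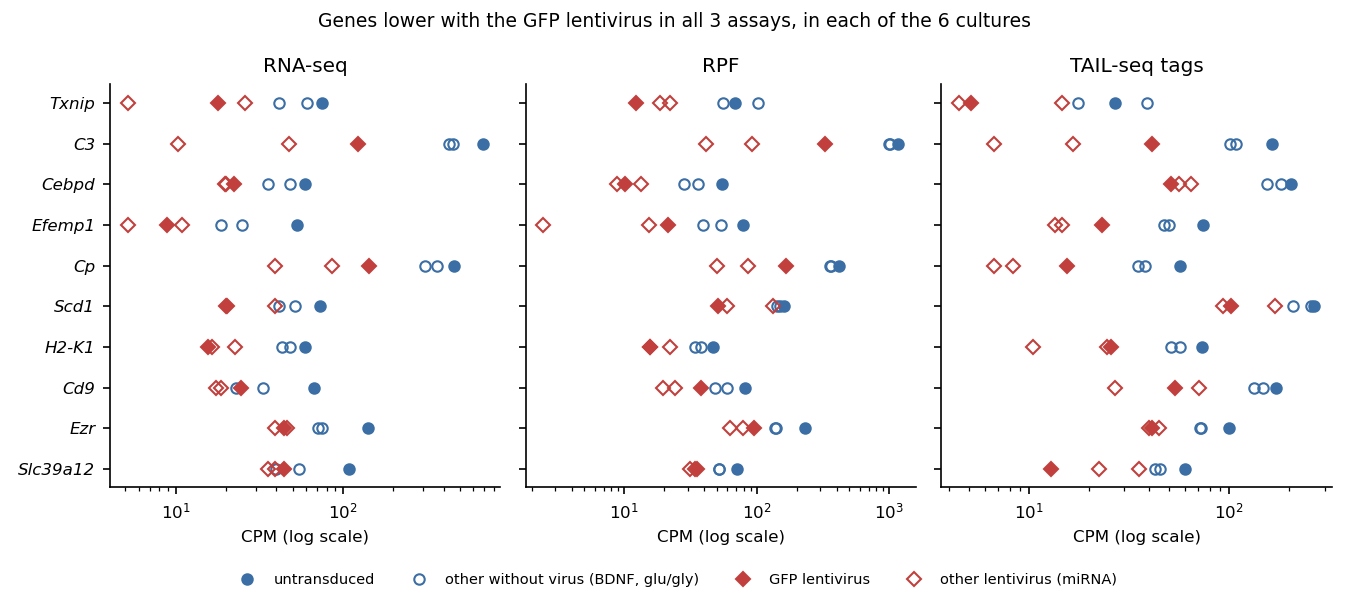
Levels in CPM (log scale) of the 10 genes called lower with the GFP lentivirus in RNA-seq, RPFs and TAIL-seq tags, 1 point a library in each of 6 DIV14 cultures, filled for the GFP (red) and the untransduced (blue) culture and open for the other cultures of each set. In RPFs and in tags the 3 lentivirus libraries lie below the 3 others for all 10 genes. Of all genes tested, 883 of 10828 in RPFs and 821 of 6926 in tags had this order, and the choice of the 10 favours it. In RNA-seq the sets overlap for Cd9 and Slc39a12.

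Over the 6 cultures the test called 110 genes lower and 4 higher in RPFs, 19 lower (0.235%) and 2 higher (0.0248%) of 8077 in RNA-seq, and 138 lower (1.79%) and 202 higher (2.62%) of 7714 in tags. The RPF total of 114 was 12 without the second miRNA library, 25 without the glu/gly library, 39 without the untransduced library, 173 without the first miRNA library and 239 without the GFP library.

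Markers of astrocytes, microglia and vascular or fibroblast cells were lower in sum in the GFP than in the untransduced culture. Fewer cells of a type and less RNA per cell cannot be told apart in bulk samples. Of 23 measured astrocyte markers 2 were called lower and 0 higher in RPFs, beside 3.46% called lower of all genes. Of the 23, 18 lay below 0 with a median of −0.44, and the list sum was 10696 CPM against 8780. The BDNF and glu/gly cultures were at 8668 and 10228, so the GFP culture was within the range of the other cultures without virus. In RNA-seq its 7290 CPM was above their 7059 and 7020, and in tags its 5033 was between their 4522 and 5216. Gfap, the intermediate filament of reactive astrocytes, was at 287, 192 and 247 RPF CPM without virus and at 123, 99.1 and 65.3 with it, with no overlap. It was 2.33-fold lower in the GFP culture (2.07 to 2.63), and lower in the lentivirus set in RPFs (adjusted p = 0.0063; lost without the glu/gly library) and tags (0.00297, both edgeR). Ntsr2, a neurotensin receptor of astrocytes, was the other called gene at 2.13-fold lower (1.31 to 3.57). Slc1a2, the main astrocyte glutamate transporter, was at 367 in the untransduced and 481 in the GFP culture, 1.31-fold higher (1.22 to 1.41). Its relative Slc1a3 was at 886 and 646, so the markers did not share 1 direction. Across the sets 4 of 23 astrocyte markers passed as lower in RPFs (edgeR), beside 0.981% of all genes. Their count was 1 without the untransduced, 0 without the glu/gly, 1 without the second miRNA and 9 without the GFP library. With the BDNF culture as the reference 0 and with the glu/gly culture 1 of these markers was called lower, and their place in the results above was not tested.

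Microglial genes were near the limit of the libraries. Of the 18 markers 2 passed the filter between the 2 cultures in RPFs and 0 were called, with a median of −0.08. Cd68, a lysosomal protein of phagocytes, passed the filter between the 2 cultures and differed by less than 2-fold. Summed over 18 markers the RPFs were 78.2 CPM in the untransduced, 78.2 in the BDNF and 69.7 in the glu/gly culture, against 44.4 in the GFP and 36.7 and 28.8 in the miRNA cultures. C1qa, which encodes a chain of complement C1q, had 24, 17 and 12 RPFs without virus and 1, 0 and 1 with it (adjusted p = 0.00382, edgeR). C1qc had 21, 18 and 11 against 0, 2 and 0 (adjusted p = 0.0266, edgeR). Csf1r, the growth factor receptor of microglia, had 21, 16 and 11 against 3, 2 and 3 (adjusted p = 0.0441, edgeR). These counts are unscaled, and the first miRNA library was the shallowest of the RPF libraries. The untransduced culture was close to the other cultures without virus in RPFs, at 5.53 CPM beside 4.6 and 4.27 for C1qa and 4.84 beside 4.87 and 3.91 for C1qc, but its list sum in tags, 152.5 CPM, was above their 129.5 and 113.8. Of the 18 markers 5 were tested over the 6 cultures, and C1qa, C1qc and Csf1r passed, beside 0.981% of all genes called lower. These 3 genes passed the filter of this test through the cultures without virus, which favours lower calls. Their count was 1 without the untransduced or the glu/gly library and 0 without the second miRNA library. Tmem119 and P2ry12, which define resident microglia, had at most 1 RPF in any culture.

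Markers of endothelial, mural and fibroblast cells summed to 645 RPF CPM in the untransduced, 340 in the BDNF, 384 in the glu/gly and 356 in the GFP culture, and to 150.5 and 199 in the miRNA cultures. The GFP culture was thus within the range of the other cultures without virus. In RPFs 2 of 8 measured genes were called lower, beside 3.46% of all genes. Col3a1, a fibrillar collagen, had 84, 85 and 35 RPFs without virus and 16, 3 and 21 with it. It was 3.57-fold lower in the GFP culture (2.08 to 6.53), with an adjusted p of 0.00477 over the 6 cultures (edgeR). Fn1, fibronectin, had 561 against 177 RPFs (2.15-fold lower, 1.82 to 2.57). Without the second miRNA library none of these markers passed over the 6 cultures. Cldn5, which defines endothelial cells, had at most 1 RPF in any culture. Several genes outside the lists, chosen after their values were seen, are known from other cells near the cortex. Their counts are given for the untransduced and the GFP culture only, so they do not show whether the untransduced culture stood apart. Ttr, the thyroid hormone carrier of choroid plexus, had 238 RPFs against 5, 29 RNA-seq reads against 0 and 190 tags against 6. Igf2, a growth factor of meninges and choroid plexus, had 95 RPFs against 0, at least 21.5-fold lower with a floor of 3 reads per library. Lyz2, lysozyme of myeloid cells, had 56 RPFs against 4. Markers of the oligodendrocyte lineage summed to 461 RPF CPM in the untransduced and 462 in the GFP culture, and 0 of 8 were called. Their tags were 526 CPM against 326, 1.61-fold lower (1.33 to 1.97), beside 335 in the BDNF and 358 in the glu/gly culture.

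Proliferation genes were lower in the GFP than in the untransduced culture and close to the other cultures without virus. In RPFs 6 of 15 measured genes were called lower and 0 higher, beside 3.46% called lower of all genes, with a median of −0.92. Ccna2, a cyclin of the S and G2 phases, had 45 RPFs in the untransduced, 10 in the BDNF, 3 in the glu/gly and 3 in the GFP culture. Mki67, a marker of dividing cells, had 50, 7, 6 and 4, and Top2a, the topoisomerase that untangles replicated DNA, 118, 25, 37 and 20. The list sum was 303 RPF CPM in the untransduced culture, 160 in the BDNF, 184 in the glu/gly and 158 in the GFP culture. With BDNF or glu/gly as the reference 0 were called lower. Top2a was 13.2-fold lower in RNA-seq with 45 against 3 reads, and 4.01-fold lower in RPFs (2.48 to 6.81), and against the BDNF culture its RPF difference was 0.004 on the log2 scale. Id1 and Id3, inhibitors of differentiation that were also chosen after their values were seen, had 61 against 7 and 114 against 16 RPFs. These counts too are for the untransduced and the GFP culture only.

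**Figure D3:**
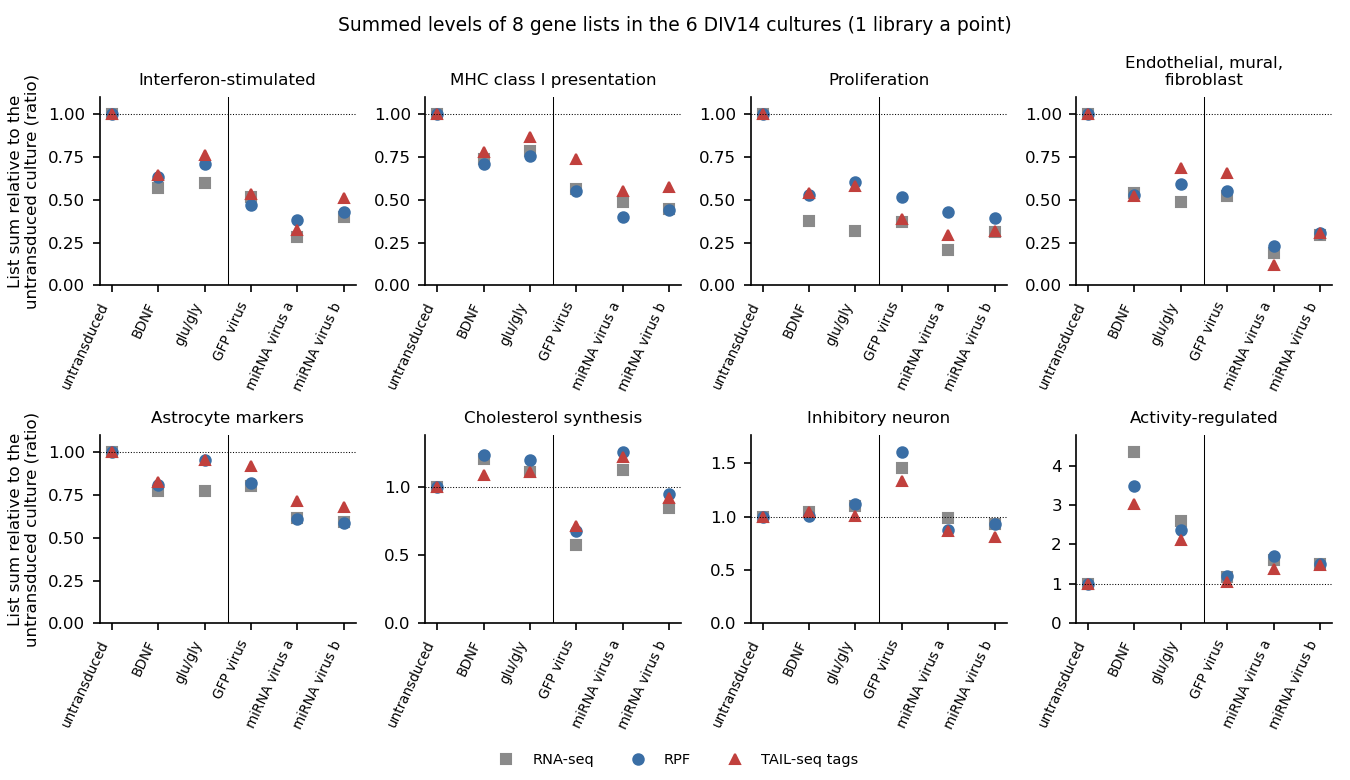
Summed level of 8 gene lists in each of the 6 DIV14 cultures, as a ratio to the untransduced culture (y axis), with 1 point for each library of RNA-seq, RPFs and TAIL-seq tags; cultures without virus are left of the line, and the RPF libraries of miRNA cultures a and b cannot be tied to miR-1 or miR-155. Interferon-stimulated genes are lowest in the 3 lentivirus cultures, proliferation genes are high in the untransduced culture alone, and inhibitory neuron markers are highest in the GFP culture.

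The summed level of cholesterol synthesis and uptake genes, which are driven together by SREBP2, was lower in the GFP culture than in every culture without virus. In RNA-seq 6 of 21 measured genes were called lower and 0 higher, beside 2.12% called lower of all genes. Of the 21, 20 lay below 0, and the median was −0.72 beside 0.00 for all genes. Hmgcs1, which makes the HMG-CoA that enters the pathway, was at 1928, 2419 and 2159 CPM in RNA-seq without virus and 951 in the GFP culture, 2.03-fold lower (1.81 to 2.28), but at 2281 and 1445 with the miRNA lentiviruses. The others included Fdps (2.38-fold), Mvd (2.20-fold), Srebf2 (2.08-fold) and Lss (2.07-fold), which encode the enzyme for farnesyl diphosphate, the mevalonate diphosphate decarboxylase, SREBP2 itself and lanosterol synthase.

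In RPFs 1 of 23 was called lower, beside 3.46% of all genes. This was Insig1, the sterol-dependent anchor of SREBP2, at 70.6, 66.3 and 67.9 CPM without virus and 29.5 with the GFP lentivirus (2.39-fold, 1.88 to 3.07). Still, 21 of 23 lay below 0 with a median of −0.53, and the list sum was 1.48-fold lower (1.45 to 1.51). The GFP culture was below each culture without virus in RPFs for 20 of the 23, beside 27.1% of all genes, but all 3 lentivirus cultures were below all 3 others for 1, beside 8.15%. With BDNF or glu/gly as the reference 5 genes were called lower in each case. None of the 24 genes tested across cultures passed in RPFs (edgeR). The miRNA cultures, with sums of 7481 and 5650 RPF CPM, lay near the 5990 to 7376 of the cultures without virus, and the GFP culture at 4042 stood apart.

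Inhibitory neuron markers were higher in sum in the GFP culture than in the other 5 cultures. Of 17 measured in RPFs, 16 lay above 0 with a median of 0.54, although 0 reached 2-fold. The list sum was 5304, 5343 and 5928 RPF CPM without virus, 8506 in the GFP culture and 4670 and 4943 in the miRNA cultures, so the GFP culture was 1.60-fold above the untransduced one (1.58 to 1.63). It was above each of the other 5 cultures for 13 of 17 genes, an order that 16.0% of all genes showed, and above each of the 3 without virus for 14, beside 28.3%. Gad1, which makes GABA, was at 1033, 1052 and 1072 without virus, 1703 in the GFP culture and 1035 and 1074 in the miRNA cultures. Reln, secreted by interneurons, was 1.87-fold higher (1.80 to 1.95), and Slc32a1, the vesicular GABA transporter, 1.46-fold (1.37 to 1.57). In RNA-seq 3 of 11 were called higher, beside 1.03% of all genes. They were Gad2 with 93 against 170 reads (2.08-fold, 1.60 to 2.70), Erbb4, a neuregulin receptor, with 50 against 118 (2.68-fold, 1.91 to 3.81), and Npy with 15 against 32 (2.42-fold). Across the sets none of these passed in RPFs (adjusted p = 0.646 for Gad1 and 0.731 for Gad2, edgeR).

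Few genes outside that list were higher by 2-fold in RPFs. Examples, chosen after their values were seen, were the proline transporter Slc6a7 with 52 against 124 RPFs (3.51-fold), the synaptic glycoprotein Lgi2 with 207 against 376 (2.67-fold), the kainate receptor subunit Grik1 with 81 against 148 (2.69-fold) and the neuropeptide precursor Tac1 with 17 against 37 (3.20-fold). In RPFs and RNA-seq activity-regulated genes were slightly higher in sum in the GFP than in the untransduced culture. The ratios were 1.2 (1.16 to 1.23) and 1.17 (1.02 to 1.34). In tags the ratio was 1.05 with an interval that included 1 (0.97 to 1.14). There 12 of 22 genes lay below 0 with a median of −0.085, although 2 were called higher, beside 1.88% of all genes. Of 30 measured in RPFs 22 lay above 0 with a median of 0.27, and 1 was called higher and 0 lower: Egr2, an immediate-early transcription factor, at 19.1 CPM in the untransduced and 40.0 in the GFP culture, beside 267 in the BDNF culture. Bdnf, the neurotrophin, was called higher in RNA-seq with 11 against 24 reads (2.48-fold, 1.17 to 5.6) and in tags with 56 against 43 (2.06-fold), and was 1.62-fold higher in RPFs. Its RNA-seq level in the GFP culture, 53.6 CPM, lay between the 52.1 of the BDNF and the 54.9 of the glu/gly culture.

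Pan-neuronal, synaptic and excitatory neuron genes differed little in RPFs. None of 13 pan-neuronal, 26 synaptic and 13 excitatory neuron genes was called in either direction, with medians of −0.00, 0.04 and 0.14. Syn1, the synaptic vesicle protein whose promoter drives the GFP cargo, was at 873 RPF CPM in the untransduced and 870 in the GFP culture, and Snap25, a protein of the vesicle fusion complex, at 1006 and 938. In RNA-seq Rbfox3, which encodes the neuronal antigen NeuN, was called lower with 29 against 9 reads, whereas its RPFs were 1.23-fold lower (1.11 to 1.37). Camk2a, a kinase of excitatory synapses, was likewise called lower in RNA-seq (2.04-fold) but was at 1408 and 1519 RPF CPM. Calls on few RNA-seq reads were thus not always shared by the deeper RPF libraries. Immature neuron genes were lower in sum, at 8947 RPF CPM in the GFP culture beside 10453 to 10782 in the other 5, 1.20-fold below the untransduced one (1.18 to 1.21). Of 17 measured 15 lay below 0 with a median of −0.17, and 1 was called lower, Cd24a, a surface glycoprotein, with 161 against 42 RPFs (2.61-fold). Gap43, a growth cone protein, was 1.41-fold lower.

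TE was compared for the 4287 genes with at least 10 RPM, on the authors' scale, in both RNA-seq files. The SD of the TE difference over genes was 0.38 on the log2 scale, and the median counting SE of a gene was 0.30, so counting error was a large share of the spread. At 2-fold with an interval that excluded 0, 23 genes were higher (0.537%) and 34 lower (0.793%). The split was 55 to 9 with the TE values that the authors deposited, which are scaled by other totals and had a median difference of 0.14. The highest were Socs5, a suppressor of cytokine signalling, with 54 against 27 RNA-seq reads and 124 against 144 RPFs (1.59, 95% interval 0.84 to 2.34), and Mtor, the growth-control kinase, with 90 against 43 and 1224 against 1155 (1.36, 0.82 to 1.89). For both, once scaled to reads on genes, RNA-seq was lower and RPFs were higher in the GFP culture.

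Ahcyl1, Slc32a1, Fjx1, Anapc2, AU040320 and 9330159F19Rik followed with differences of 1.32 to 1.18. Slc32a1 had 83 against 45 RNA-seq reads but 742 against 291 tags, or 712 and 747 CPM, so the 2 measures of its mRNA differed. Col4a5, a basement membrane collagen, was the lowest at −1.44 (−2.18 to −0.71), with 36 against 30 RNA-seq reads but 790 against 187 RPFs. Its RPFs were 2.87-fold lower, and its tags, 23 against 4, were under the filter. Cyth1, Zfp317, Srsf2, Dok4, Lin7b and Rab5if were among those that followed at −1.33 to −1.22. The interaction of assay and set over the 6 cultures gave 0 genes at an adjusted p under 0.05 (edgeR), and 362 of 8077 at an unadjusted p under 0.05. The smallest adjusted p of the 8 highest and 8 lowest genes was 0.602, for Slc32a1 (edgeR). The fit did not pair the RNA-seq and RPF libraries of a culture, since the 2 miRNA RPF libraries cannot be tied to a culture. What a paired fit would call was not tested. The interferon-stimulated genes contributed 1 gene to the TE comparison and the MHC genes 0, so their TE was not measured.

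Poly(A) tails of most mRNAs were shorter in the GFP culture. Over 1856 genes with at least 50 tags in both files the median of the mean tails was 111 nt in the untransduced and 102 nt in the GFP culture. The median difference was −8.45 nt (5th to 95th percentile −20.2 to 2.59 nt), and 90.4% of the genes were shorter. The 8 spiked-in standards of named tail length with at least 50 tags in both differed by −6.14 to 12.0 nt with a median of −0.03 nt. STD13, a further entry with no named length that held most of the tags on standards, 101828 and 82774, went from 43.6 to 38.5 nt (−5.12 nt), and the median of the 9 was −0.82 nt. The part of the measurement in the shift of the genes was not tested. Over the 1701 genes measured in all 6 cultures the medians were 111, 110 and 106.5 nt in the untransduced, BDNF and glu/gly cultures and 102, 100.1 and 102 nt in the GFP, miR-1 and miR-155 cultures. By limma 409 of the 1701 genes were shorter in the lentivirus set (24.0%) and 0 longer, with 849 at an unadjusted p under 0.05. The 409 were 0 after each library was centred at its median, 16 without the untransduced library, 6 without the BDNF library and 10 without the GFP and untransduced libraries.

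Relative to the shared shift, 8 genes were longer and 8 shorter by 20 nt or more (0.431% each). Mageh1, Mark3 and Ggnbp2 had the largest lengthening as deposited, 17.5, 17.4 and 17.0 nt, and Sp9, Mrpl41, Ddx25, Ulk2 and Tac2 were 13.0 to 11.6 nt longer. Ephx1, an epoxide hydrolase, was shortened most, from 113 to 77.6 nt. Vdac1, the anion channel of the outer mitochondrial membrane, was at 138, 135 and 128 nt without virus. With virus it was at 102.5, 121 and 117 nt (−20.1 ± 4.53 nt, SE, adjusted p = 0.0169, limma). That fit was not centred and so holds the shared shift, and with each library centred at its median 0 of 1701 genes passed. Vdac1 was also chosen by its difference between the GFP and untransduced libraries, which are part of the fit. Vip, a neuropeptide, went from 133 to 99.0 nt, and Psmb7, H1f0, Dync1h1 and Dars were 28.9 to 29.8 nt shorter. NM_001081360, which the gene table does not pair with a symbol, was 29.9 nt shorter. These 16 genes had 51 to 71 tags in the GFP culture, near the minimum, and at a minimum of 200 tags 0 genes passed.

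Tail and TE differences showed no correlation across genes. Spearman's rho was −0.02 over the 1512 genes with both values, whose libraries come from the same pair of cultures. Counting error was a large share of the TE spread (median SE 0.30 beside an SD of 0.38), which can hide a relation.

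**Figure D4:**
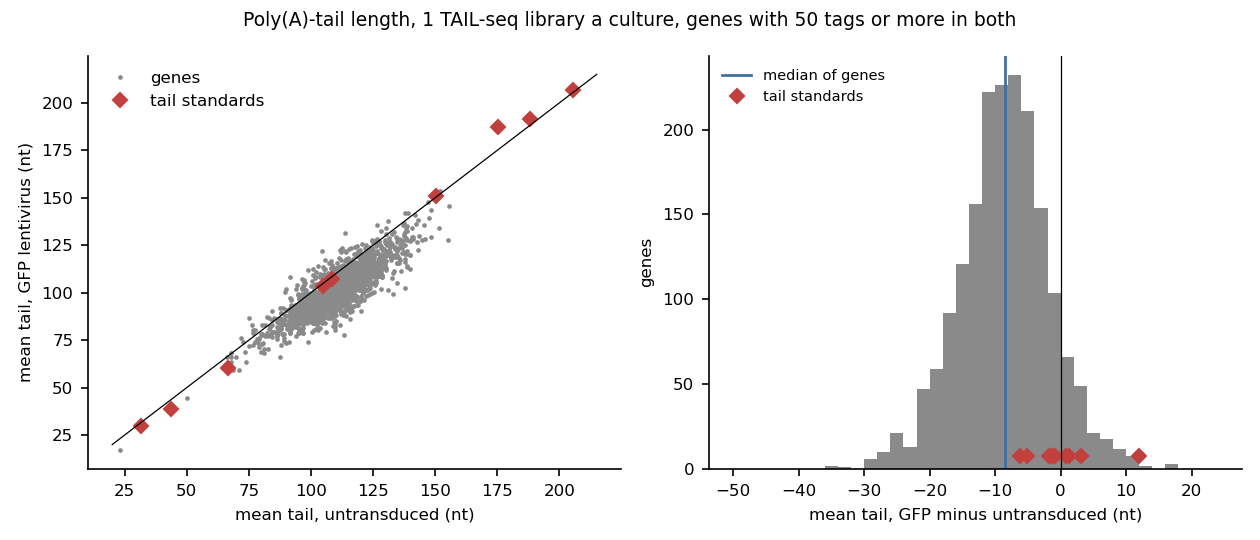
Left, mean poly(A)-tail length of each of 1856 genes (nt) in the untransduced (x axis) and the GFP culture (y axis), with tail standards as diamonds and the line of equality. Right, the number of genes by their difference (nt), with a line at their median of −8.45 nt; the 9 standards, STD13 included, lie between −6.14 and 12.0 nt.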

How the data were processed

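RNA-seq (ribosomal RNA depleted), RPF and TAIL-seq files of 6 DIV14 cultures were used, 18 in all. The authors mapped reads with STAR 2.4.2 to mm10 (versions per the labels) and counted reads on coding regions, leaving out the first 50 nt; they deposited these counts with RPM values and log2 TE. For TAIL-seq the authors deposited a tag count and the mean tail in nt for each gene, measured up to 250 nt. Deposited RPM is relative to a total of which 21.6% (untransduced) and 18.3% (GFP) of RNA-seq and 67.5% and 63.8% of RPF reads were on genes, so counts were rescaled here to reads on genes.

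16174 accessions were matched to 16048 symbols. Ratios between the GFP and the untransduced library have exact 95% intervals. Genes with at least 30 reads summed were called at 2-fold, TE needed 10 RPM in both RNA-seq files, and tails needed 50 tags in both and 20 nt from the median difference. edgeR 4.0.16 (counts, TMM) and limma 3.58.1 (tails) set 3 lentivirus cultures against 3 without virus at an adjusted p of 0.05; DESeq2 1.42.0, other filters, scalings, references and left-out libraries were alternatives. Scripts were tested on simulated data. The 2 miRNA RPF libraries have contradictory titles and were used only as members of the set.

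The members and the 25 gene lists were chosen with earlier results of these data known. Genes were named where called in all 3 assays, or listed and called in 2, or among the 8 largest TE or tail differences either way, or as defining genes of a list; others are said to be chosen after their values were seen. A few genes that these rules name are not reported here.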

Additional observations from a re-analysis of the deposited data

Results flagged for a closer look

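The RNA-seq and RPF files hold entries beside the RefSeq genes, and 3 of them, named STD8, STD12 and STD4 in the files, had signal in lentivirus cultures above their level in the cultures without virus. What sequences they stand for is not given in the sources used here, and they entered none of the comparisons. In RNA-seq STD8 had 0, 1 and 0 reads in the untransduced, BDNF and glu/gly cultures, and 152, 402 and 1714 reads in the GFP, miR-1 and miR-155 cultures, which is 339.27, 415.0 and 811.84 CPM. In RPFs it had 2, 1 and 2 reads without virus, and 262.41 CPM in the GFP culture and 397.74 and 596.76 in the 2 miRNA cultures. Between the GFP and the untransduced culture it was at least 57.5-fold higher in RNA-seq, with a floor of 3 reads in the library at 0, and 569-fold higher in RPFs (95% counting interval 157 to 4710). In the GFP culture it had more RNA-seq reads than 95.8% and more RPFs than 94.4% of the listed genes. The sets of cultures named by the labels were separated by STD8 in all 12 libraries. STD12 in RNA-seq was at 49.14, 22.94 and 33.25 CPM without virus and at 142.85, 60.91 and 63.94 in the GFP, miR-1 and miR-155 cultures, and was 2.91-fold higher in the GFP than in the untransduced culture (1.81 to 4.82), but had 0 to 3 RPFs in each library. STD4 had 0, 3 and 0 RPFs without virus and 7, 3 and 15 with it, which is 2.37 CPM in the GFP culture and 2.33 in the second miRNA culture; the first miRNA culture, with 3 reads, was at the floor.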

How the results depend on the processing

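No paired analysis was possible because the cultures carry no shared replicate numbers, with 1 library for each culture and assay. Between the GFP and the untransduced culture the called genes moved by over 1.5 times with the filter or threshold, and the cause beyond fewer or more genes tested was not tested. RNA-seq gave 205 genes, 26 at 100 reads, 431 with no filter, 573 at 1.5-fold, 380 with the authors' RPM and 314 against glu/gly. RPFs gave 456, 152 at 100 reads, 1328 at 1.5-fold, 268 against BDNF (111 higher, 157 lower) and 238 against glu/gly (92 and 146). Tags gave 327, 76 at 100 reads, 499 with no filter and 736 at 1.5-fold. TE gave 57, 4 at 30 RPM, 360 at 1.5-fold and 98 against glu/gly (72 and 26). Tails gave 16, 0 at 200 tags, 232 at 20 tags, 100 without the median taken off, 263 at 10 nt and 28 against BDNF.

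Across the 6 cultures RNA-seq gave 21 genes, 254 with no filter and 1 to 20 with 1 library left out, and RPFs gave 114, 409 with no filter and 12 to 239. Tags gave 340, 144 by DESeq2, 622 with no filter, 168 without GFP and untransduced and 106 to 334 with 1 left out. Tails gave 409, 209 at 200 tags, 0 centred, 10 without GFP and untransduced and 6 to 582 with 1 left out. TE gave 0 in all fits. Signs reversed for Slc39a12 and Bdnf in RNA-seq against glu/gly (0.162 and −0.034, log2) and for Top2a RPFs against BDNF (0.004). For the named genes and lists, 542 values under an alternative kept direction and call or stayed within the spread, 45 lost a call, 18 gained one and 52 moved by more. References other than the untransduced culture were chosen after seeing the data.

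Depth limited RNA-seq most, where 2 of the 45 interferon-stimulated genes passed the filter beside 30 in RPFs.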

Other observations

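TAIL-seq tags of short, abundant housekeeping mRNAs were higher in the GFP culture, whereas their RPFs were not. Of 74 measured nuclear-encoded subunits of oxidative phosphorylation 4 were called higher in tags and 0 lower, beside 1.88% called higher of all genes. Their median was 0.34 beside −0.01 for all genes. Their summed tags were 38684 CPM in the untransduced and 45748 in the GFP culture, 1.18-fold higher (1.16 to 1.2). The same list had a median of 0.02 in RNA-seq and −0.06 in RPFs. In the 6 cultures 18 of 75 were higher in tags in the lentivirus set (edgeR), beside 2.62% of all 7714 genes tested. Cytosolic ribosomal proteins, whose reads can be shared with pseudogenes, had a median of 0.19 in tags with 2 of 44 called higher, beside 1.88% of all genes. In RPFs their median was −0.30 with 2 of 38 called lower, beside 3.46%. By the same test 14 of 50 were higher in tags and none of 39 in RPFs. Without the BDNF library these counts in tags were 9 of 74 and 6 of 48.

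The differences moved with the length of the coding region in the files. From the shortest to the longest of 5 equal groups of genes the median RPF difference went from −0.21 to 0.09 on the log2 scale, that of RNA-seq from −0.09 to 0.06 and that of TE from −0.12 to 0.06, whereas that of tags went from 0.05 to −0.10. By level, 231 of the 375 genes called lower in RPFs were in the lowest of 5 equal groups, as were 50 of the 81 called higher. The part of length and level in the counts above was not tested.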
